A study of Setaria viridis with 11 samples.

Results

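Transcripts that the study lists as abscisic acid (ABA) inducible markers were examined in leaves of *Setaria viridis*, a C4 grass. They number 9 of the 40599 transcript identifiers in the count files. The 9 were chosen by their heat-against-control difference, as the markers of that list that were higher under heat, with the transcripts of the kinase OST1 left out and the HAI2 transcript Si024914m included by name. That difference is therefore given below as a description, and no p is attached to it for any marker. Of these, 3 carry the names of ABF transcription factors, namely ABF3 (Si006889m), ABF4 (Si030300m) and ABF2 (Si030114m). The other 6 carry the names of clade A type 2C protein phosphatases (PP2Cs). These are AHG1 (Si013648m), 3 transcripts named HAI3 (Si010073m, Si022243m and Si030198m) and 2 named HAI2 (Si001708m and Si024914m). The names are those of Arabidopsis genes, given by the study to the *Setaria* identifiers, and 0 of the 9 identifiers matched the gene table used here, so positions, lengths and sequences are not analysed here.

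RNA was sequenced from the pooled midsection of fully expanded leaves of 11 wild-type plants of accession A10, 5 control plants and 6 heat-stressed plants. All plants were raised at 28 °C by day in a cycle of 16 h light and 8 h dark, with 380 ppm CO2 and 1000 μmol quanta per square metre and second. After 2 weeks, the plants of the heat group were moved to a second chamber, where days were at 42 °C and nights at 32 °C, and stayed there for 2 weeks. The sample labels give nights of 20 °C for the controls, and leaves were taken on day 28. Each condition had its own chamber, so chamber and temperature cannot be told apart, and in whole-leaf RNA fewer cells of a type and less RNA per cell cannot be told apart either.

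ABA is the hormone through which plants respond to water shortage, salt and other abiotic stress. In the core pathway, worked out mostly in Arabidopsis, clade A PP2Cs hold SnRK2 kinases such as OST1 inactive. ABA bound to its PYR/PYL/RCAR receptors can inhibit PP2Cs of this clade, though not necessarily each of them, and the freed kinases phosphorylate ABF transcription factors. ABFs are bZIP proteins that bind ABA-responsive elements in promoters, and the genes for several clade A PP2Cs are themselves induced by ABA. HAI stands for highly ABA-induced, and AHG1 for ABA-hypersensitive germination 1, a PP2C known in Arabidopsis above all from seeds.

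The libraries held 34362084 to 54011056 counts. The share of psbA (Si020824m), a plastid transcript, was 61.8% to 69.6% in the control plants but 46.1% to 48.5% under heat. Levels are therefore given as CPM, counts scaled to a common library size with edgeR's TMM factors. These factors were 0.576 to 0.796 in the control plants and 1.33 to 1.5 in the heat-stressed plants. Transcripts of leaf photosynthesis were abundant in all plants. The Rubisco large subunit (Si020845m) had 26672 to 35409 CPM in the control plants and 16970 to 21116 CPM under heat. Phosphoenolpyruvate carboxylase (Si005789m) had 11132 to 16479 CPM in the control plants and 4416 to 12566 CPM under heat. In control plant 2, 67.3% of the reads fell on the summary lines for reads assigned to no transcript, the highest share of the 11 plants.

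The test covered 18065 transcripts that passed edgeR's low-count filter (filterByExpr). All 9 markers passed the filter, but 5 of them did so only through the heat-stressed plants. These were AHG1 and the HAI3 transcript Si010073m, with 0 control plants at the filter's level, ABF2 and the HAI3 transcript Si030198m, with 1 each, and the HAI3 transcript Si022243m, with 2. By an adjusted p under 0.05 in edgeR's quasi-likelihood test, 32.2% of all tested transcripts were higher under heat, and 9 of the 9 markers were among them. Every heat-stressed plant lay above every control plant in CPM for 7 of them, against 23.5% of all tested transcripts. Both counts follow from how the markers were chosen, and nothing is read from them. The median log2 fold change was 2.36 over the 9 markers, 2.6 over the 6 PP2Cs and 0.78 over the 3 ABFs, beside 0.02 over all tested transcripts.

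**Figure D1:**
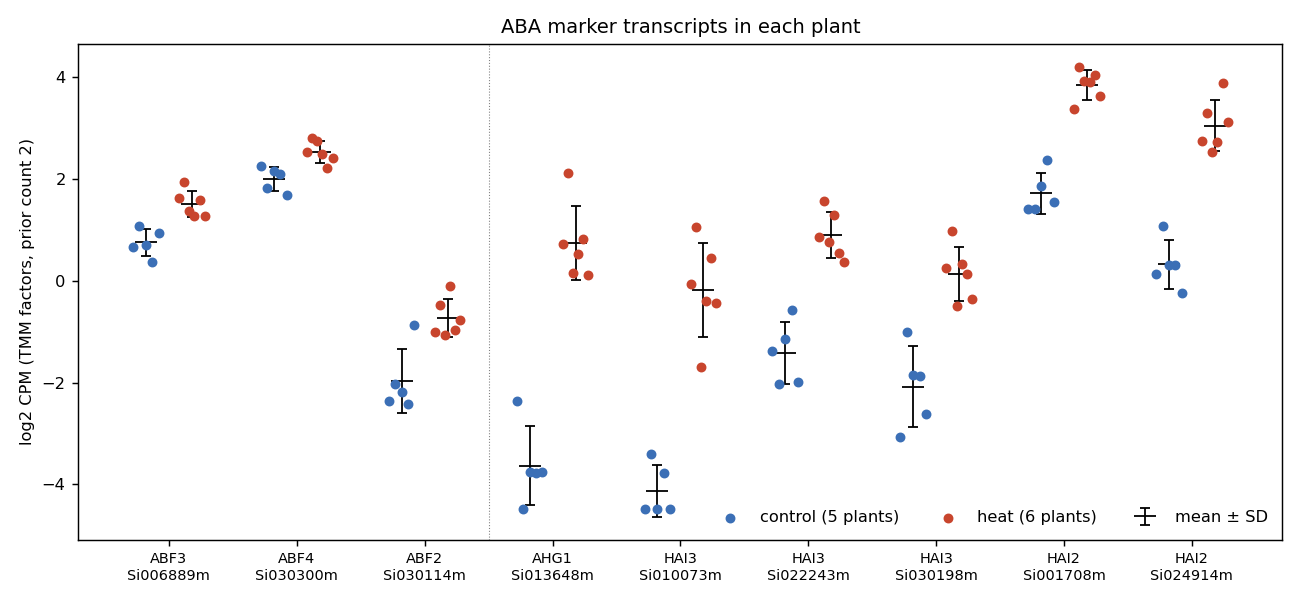
Level of each marker in each plant, as log2 CPM with TMM factors and a prior count of 2 (blue, 5 control plants; red, 6 heat-stressed plants; bars, mean ± SD). The groups overlap for ABF4 and ABF2 and are apart for the other 7 markers, with the widest gap for AHG1 and the HAI3 transcript Si010073m.

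Among the PP2Cs, the 2 with the fewest control counts had the largest fitted differences. The HAI3 transcript Si010073m had 0, 1, 0, 1 and 0 counts in control plants 1 to 5. In the heat-stressed plants it had 16 counts at the lowest, a median of 48.5 and 132 at the highest. It was thus at the limit of detection in the controls and detected in each heat-stressed plant. From pooled counts of 2 and 349, its level was 75.5 times higher under heat, with an exact 95% interval of 20.7 to 626 that covers counting error only. The fitted log2 fold change was 5.94 (SE 0.80) and depends on the prior count at so low a control level. DESeq2's Wald test gave 6.18 (SE 1.02), so the SE of 0.80 may be too small. With plants left out in turn the edgeR value lay between 5.61 and 6.59. It was highest without control plant 2, which held 1 of the 2 control counts. The transcript ranked 98th of the 18065 tested transcripts in log2 fold change.

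AHG1 (Si013648m) had 4, 0, 1, 1 and 1 counts in control plants 1 to 5. Under heat the counts were 54 at the lowest, 79.0 at the median and 279 at the highest. A single plant decided the top of each group, since control plant 1 held 4 of the 7 control counts and heat plant 2 stood far above the other 5 heat-stressed plants. The pooled level was 40.9 times higher under heat (exact 95% interval of 19.7 to 102, counting error only), and the fitted log2 fold change was 5.22 (SE 0.62). Without control plant 1 the fitted value was 6.10 (SE 0.72), and over all plants left out in turn it lay between 4.81 and 6.10.

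The other HAI3 transcripts were low but present in every control plant. Si022243m had 0.339, 0.202, 0.408, 0.627 and 0.208 CPM in control plants 1 to 5, and 1.24 at the lowest, 1.70 at the median and 2.92 at the highest under heat. Its lowest heat-stressed plant was 1.97 times its highest control plant. Si030198m had 0.0753, 0.455, 0.233, 0.228 and 0.119 CPM in the controls, from 2 to 9 counts a plant, and 0.665, 1.10 and 1.92 CPM as lowest, median and highest under heat. The groups were apart by a factor of 1.46. The log2 fold changes of the pair were close, at 2.36 (SE 0.32) for Si022243m and 2.40 (SE 0.40) for Si030198m, both far smaller than that of the third HAI3 transcript.

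The HAI2 transcripts rested on more counts than the other PP2Cs in every group. Si001708m had 2.6, 2.63, 3.59, 5.10 and 2.88 CPM in control plants 1 to 5, from 52 to 179 counts a plant. Under heat its CPM was 10.3 at the lowest, 14.98 at the median and 18.4 at the highest, a log2 fold change of 2.1 (SE 0.20). This was the smallest and the most precise of the PP2C differences. Si024914m had 1.05, 2.07, 1.20, 1.20 and 0.801 CPM in the controls, and 5.71, 7.64 and 14.8 CPM as lowest, median and highest under heat. Its log2 fold change was 2.81 (SE 0.29). The mean log2 ratio of Si024914m to Si001708m within a plant was 0.60 higher in the heat-stressed plants than in the controls. The SDs between plants were 0.46 (n = 6) under heat and 0.66 (n = 5) in the controls. Ratios ran from -1.40 to -0.14 under heat and from -2.05 to -0.34 in the controls, so the groups overlapped. This difference was not tested.

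The ABF transcripts differed less between the conditions. ABF3 (Si006889m) had 1.54, 2.07, 1.57, 1.25 and 1.87 CPM in control plants 1 to 5 and 2.36, 2.73 and 3.79 CPM as lowest, median and highest under heat. The groups were just apart, by a factor of 1.14 between the lowest heat-stressed and the highest control plant, and the log2 fold change was 0.78 (SE 0.17). ABF4 (Si030300m) had the smallest log2 fold change of the 9, 0.53 (SE 0.14). Its CPM was 4.71, 3.49, 4.43, 4.22 and 3.17 in the controls and 4.57, 5.66 and 6.93 as lowest, median and highest under heat. Heat plant 5 lay below control plant 1, so that the groups overlapped. The OST1 transcripts were left out by name and are not analysed here, and no value is given for markers that were not higher under heat.

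ABF2 (Si030114m) rested on few counts throughout, with 4, 4, 6, 5 and 17 counts in control plants 1 to 5 and 24, 29.0 and 45 counts as lowest, median and highest under heat. Control plant 5, at 0.504 CPM, was above 3 of the 6 heat-stressed plants, while the other control plants had 0.143 to 0.202 CPM. The log2 fold change was 1.26 (SE 0.36), and 1.78 (SE 0.33) without control plant 5.

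**Figure D2:**
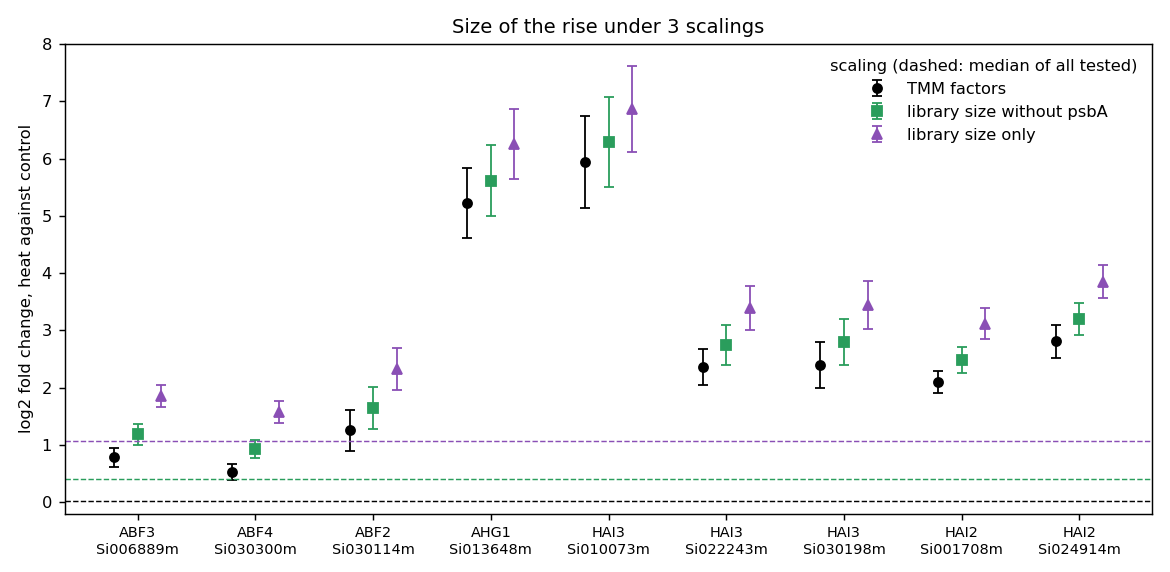
Log2 fold change of each marker, heat against control (points, fitted value; bars, ± SE), with TMM factors, with library size after removal of psbA, and with library size only. Dashed lines mark the median of all tested transcripts in each scaling (0.02, 0.41 and 1.07), and the order of AHG1 and Si010073m above the other markers is seen in each.

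The size of the differences depended on the scaling. With library size as the only scaling, the median transcript was itself higher by 1.07 on the log2 scale and the median of the 9 markers was 3.39. Relative to the median transcript the markers' median was 2.34 with TMM factors and 2.32 in that setting, because a shift common to all transcripts cancels. ABF4 was then at 1.58 (SE 0.19) and ABF3 at 1.85 (SE 0.19), still above the median transcript. By log2 fold change with TMM factors, the PP2Cs lay above 92.7% to 99.5% of transcripts and the ABFs above 69.3% to 84.2%.

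Heat-stressed plants differed among themselves most in AHG1 and the HAI3 transcript Si010073m. The SD of log2 CPM over the 6 heat-stressed plants was 0.22 for ABF4, 0.26 for ABF3 and 0.38 for ABF2, beside a median of 0.27 over all tested transcripts. It was 0.30 and 0.50 for the HAI2 transcripts Si001708m and Si024914m, 0.46 and 0.53 for the HAI3 transcripts Si022243m and Si030198m, 0.73 for AHG1 and 0.93 for Si010073m. The CPM of Si010073m varied by a factor of 7.62 between heat-stressed plants and that of ABF4 by 1.51. Counting error was smaller than the observed spread for each of the 9 markers. For Si010073m the coefficient of variation was 61.9%, where counting error at its mean count would give 13.1%, and for AHG1 the values were 66.1% and 9.52%. ABF2 came closest to counting error, with 30.9% against 17.5%.

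Heat plant 2 stood at the top for most markers. It had the highest level of the 6 heat-stressed plants in 7 of the 9 markers and was among the upper 2 in 9 of 9. The exceptions were ABF2, highest in heat plant 4, and the HAI2 transcript Si024914m, highest in heat plant 5 at 14.8 CPM against 9.71 CPM in heat plant 2. Heat plant 3 was lowest for 4 markers and heat plant 6 for 3. In the controls no plant held such a place, the most being the highest level in 4 of 9 markers, in control plant 2. Control ranks rest on few counts for several markers, with 0 or 1 a plant for Si010073m and 0 to 4 for AHG1. Control plant 2 was the highest for Si010073m on 1 count. The controls therefore cannot show whether such an order is particular to the heat-stressed plants.

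**Figure D3:**
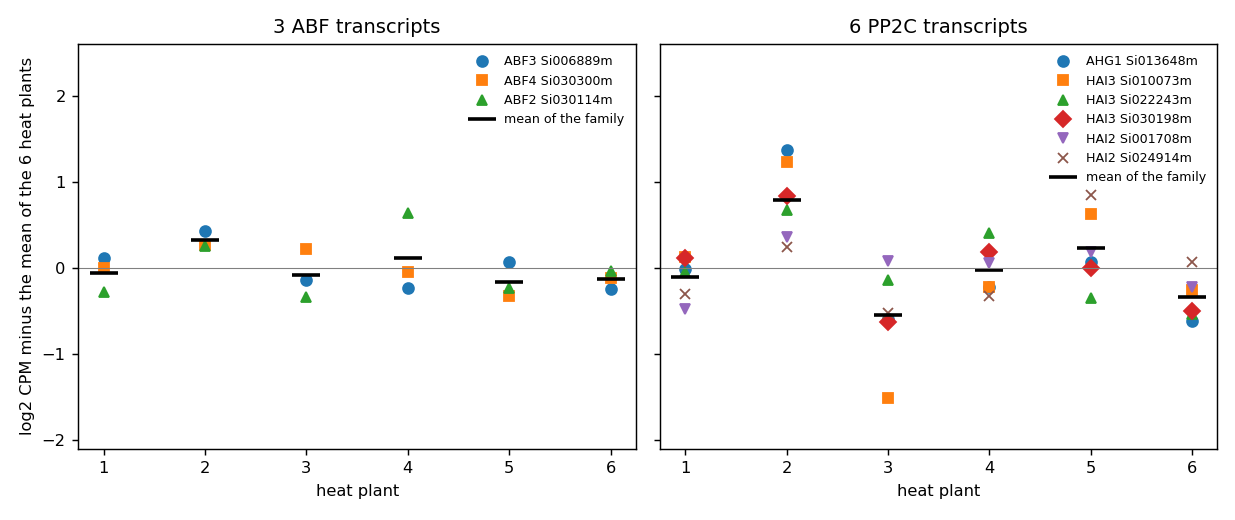
Level of each marker in heat plants 1 to 6, as log2 CPM minus the mean of the 6 plants (left, 3 ABFs; right, 6 PP2Cs; black bars, mean of the family). Heat plant 2 is above the mean for each of the 9 markers, and the widest spread is that of AHG1 and Si010073m.

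Whether the markers varied together was examined over the 6 heat-stressed plants, a measure that the choice of markers did not use. The low-count filter did use the levels in these plants, and AHG1, ABF2 and the HAI3 transcripts passed it only through them. Of the 36 pairs, 31 had a positive Pearson's r and 5 a negative one, with a median of 0.40. Over all pairs of tested transcripts the median was 0.0002, and 50.01% of them were positive. Over pairs of transcripts that were higher under heat the median was 0.05, and 53.1% were positive. An r at or above the markers' median was reached by 23.5% of all pairs and 26.1% of pairs higher under heat. The 36 pairs share 9 transcripts and 6 plants and are not independent of each other. Within the PP2Cs the median of the 15 pairs was 0.48, between ABFs and PP2Cs it was 0.38 over 18 pairs, and within the ABFs 0.11 over 3 pairs. The transcripts of a plant share its library, depth and scaling factor.

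The 5 pairs with the highest r were among AHG1, ABF3 and the 3 HAI3 transcripts. AHG1 and ABF3 had a Pearson's r of 0.93 (2-sided exact permutation p = 0.00972, adjusted p = 0.30 over 36 pairs, n = 6) and a Spearman's rho of 0.89 (exact permutation p = 0.0333, adjusted p = 0.544). For AHG1 and Si030198m, r was 0.93 (exact permutation p = 0.0167, adjusted p = 0.30) and rho 0.71 (exact permutation p = 0.136, adjusted p = 0.544). For AHG1 and Si010073m, r was 0.83 (exact permutation p = 0.0347, adjusted p = 0.32) and rho 0.94 (exact permutation p = 0.0167, adjusted p = 0.544). Between HAI3 transcripts, r was 0.85 for Si010073m and Si030198m (exact permutation p = 0.0361, adjusted p = 0.32) with a rho of 0.77 (exact permutation p = 0.103, adjusted p = 0.544). For Si022243m and Si030198m, r was 0.82 (exact permutation p = 0.0444, adjusted p = 0.32) and rho 0.83 (exact permutation p = 0.0583, adjusted p = 0.544). Of the 36 pairs, 5 had an unadjusted exact p under 0.05 for Pearson's r and 2 for Spearman's rho, and 0 an adjusted one for either. The HAI2 transcript Si024914m was a member of 3 of the 5 negative pairs, with an r below 0 with ABF4 (-0.58), the HAI3 transcript Si022243m (-0.19) and ABF2 (-0.09). When the 2 plants farthest from the median of the first marker were left out of each pair, the median r over the 36 pairs was -0.19. The plants left out differed between pairs, and such a cut narrows the range of the first marker, which can by itself lower r. The same cut was not made for all transcripts, so no conclusion is drawn from this value. For the 5 pairs above, r after the cut was 0.71 for AHG1 and ABF3, 0.80 for AHG1 and Si030198m, and 0.99 for AHG1 and Si010073m. It was 0.29 for Si010073m and Si030198m and 0.33 for Si022243m and Si030198m.

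**Figure D4:**
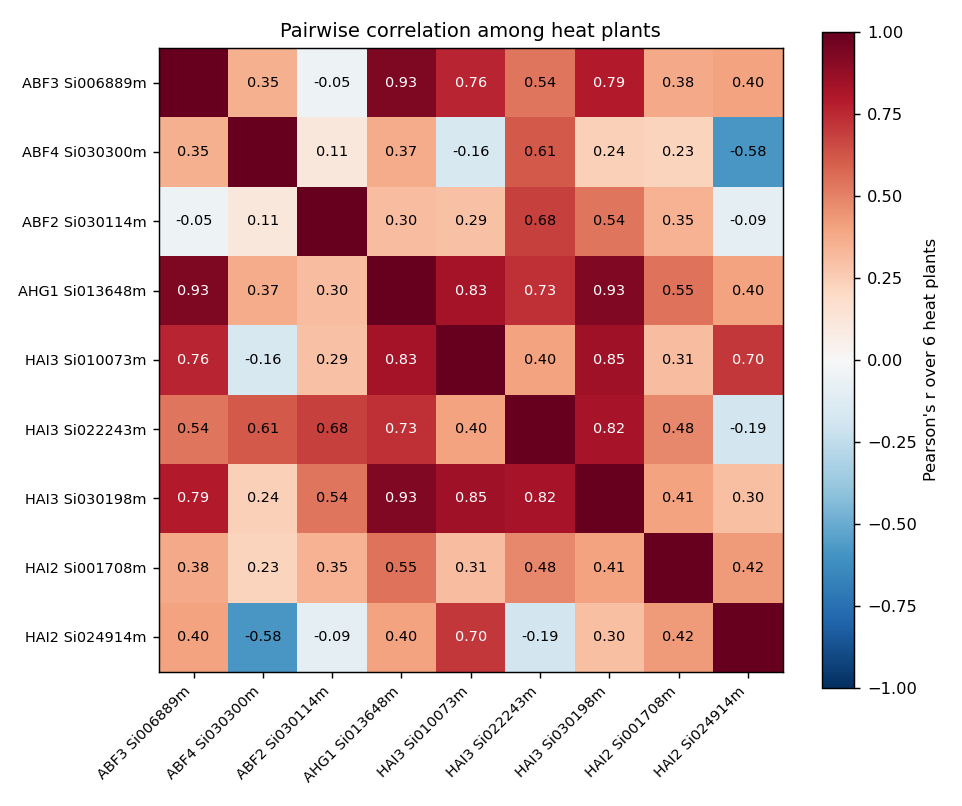
Pearson's r of log2 CPM over the 6 heat-stressed plants for each pair of markers (red, positive; blue, negative). The pairs among AHG1, ABF3 and the HAI3 transcripts Si010073m and Si030198m range from 0.76 to 0.93, and no pair passed the threshold after adjustment over 36 pairs.

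The mean of the 3 ABFs and the mean of the 6 PP2Cs had a Pearson's r of 0.71 over the heat-stressed plants (2-sided exact permutation p = 0.107, adjusted p = 0.374 over 7 relations, n = 6) and a Spearman's rho of 0.37 (exact permutation p = 0.497, adjusted p = 0.987). Without heat plants 2 and 4, the farthest from the median ABF mean, r was -0.47. Leaving out heat plant 2 alone gave 0.07, so that 1 plant decided this value. The median over the 36 pairs was 0.10 without it.

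The ABF mean also went with a property of the libraries. Its Pearson's r with the TMM factor was 0.96 (exact permutation p = 0.00139, adjusted p = 0.00972 over the 7 relations, n = 6), its Spearman's rho was 1 (exact permutation p = 0.00278, adjusted p = 0.0194), and r without heat plants 2 and 5 was 0.95. Of single markers, the HAI3 transcript Si022243m followed the factor most closely (r = 0.98), ABF4, ABF2 and ABF3 less so (0.70, 0.67 and 0.49), and the HAI2 transcript Si024914m had a negative value (-0.32). The PP2C mean had an r of 0.57 with the TMM factor (exact permutation p = 0.240, adjusted p = 0.561, n = 6) and a rho of 0.37 (exact permutation p = 0.497, adjusted p = 0.987), and 0.68 without heat plants 2 and 5. With total counts, r was 0.03 for the ABF mean and 0.03 for the PP2C mean (rho 0.09 and -0.20), and with the psbA share it was -0.52 and -0.07 (rho -0.31 and -0.03). None of these 4 relations passed the threshold (exact permutation, adjusted p = 0.576 to 0.954 for r and 0.987 to 1 for rho, n = 6), and r without the 2 farthest plants lay between -0.93 and 0.67. With the ABF mean scaled otherwise, its r with the TMM factor was 0.96 (DESeq2's size factors) and 0.97 (upper-quartile factors). It was 0.98 both with library size only and with library size without psbA. In read pairs alone it was 0.91 (exact permutation p = 0.00694), and in single reads alone 0.52 (exact permutation p = 0.288), from 2 ABFs. Of the 18065 tested transcripts taken singly, 73 (0.40%) had an r with the factor at or above the 0.96 of the ABF mean. The part of the scaling factor in the spread of the ABFs was not tested.

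**Figure D5:**
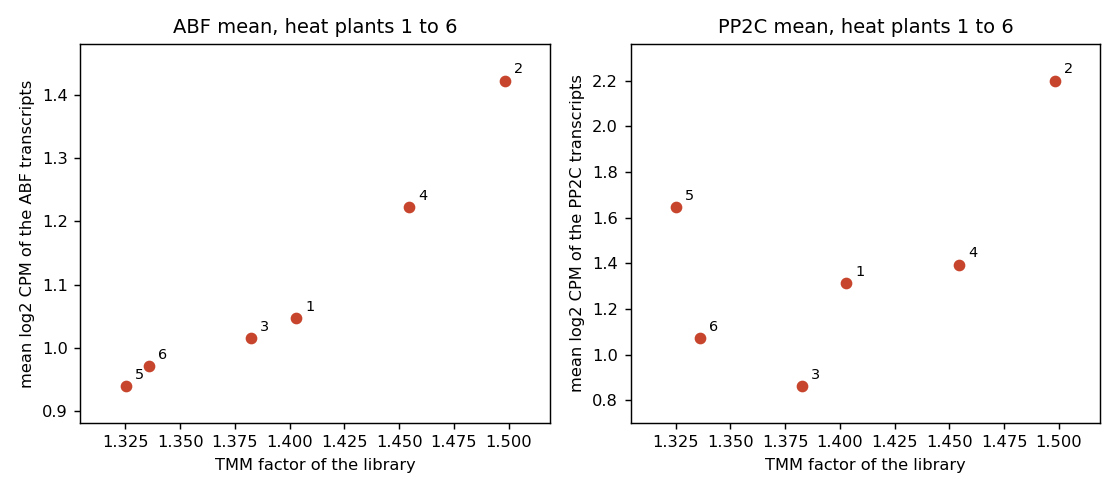
Mean log2 CPM of the 3 ABFs (left) and of the 6 PP2Cs (right) against the TMM factor of each library, for heat plants 1 to 6 (numbers beside the points). The ABF mean goes from 0.94 in heat plant 5 to 1.42 in heat plant 2 in the same order as the factor, while the PP2C mean does not keep that order.

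Of the transcripts outside the list, Si022840m and Si017915m were most like the PP2Cs in pattern over the 6 heat-stressed plants, with a Pearson's r of 0.996 and 0.99 with the mean of the standardized PP2C levels. Their own log2 fold changes under heat were 2.70 (SE 0.40) and 1.51 (SE 0.18). Those most like the ABFs were Si000363m and Si002454m, with an r of 0.998 and 0.997. Their log2 fold changes were 0.25 (SE 0.18) and 0.80 (SE 0.31). With only 6 plants, 234 transcripts reached an r of 0.9 with the PP2C pattern and 325 with the ABF pattern, that is 1.30% and 1.80% of those tested.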

How the data were processed

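RNA-seq counts from leaves of 5 control and 6 heat-stressed plants were used. Per the methods of the paper, libraries were strand-specific (the labels name an Illumina TruSeq RNA kit, version 2) and made after ribosomal RNA depletion. The authors used Trimmomatic for trimming, TopHat2 for alignment against *S. italica* v2.1, and HTSeq's union mode for exon counts. Tool versions and HTSeq's strand setting are not given in the sources used here. The deposited values are raw counts per transcript, in 2 files per plant (read pairs and single reads, 22 files), which were summed. The authors' copies and sums of these columns, in 10 of the files, were not used. The 5 summary lines of each file, together 30.3% to 67.3% of a plant's reads, were left out. Reads with several alignments are among them, so sequence shared by near-identical copies, which may include the HAI2 or HAI3 transcripts, is not counted.

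The 2 conditions were compared in edgeR 4.0.16 (R 4.3.3) by its quasi-likelihood test, using filterByExpr, TMM factors and Benjamini-Hochberg adjustment over 18065 transcripts (threshold 0.05). SEs were obtained by dividing the log2 fold change by the root of the F value. The prior count shrinks that fold change but not F, so these SEs are approximate. They may be too small for AHG1 and Si010073m, which had the fewest control counts. Correlations over the 6 heat-stressed plants used log2 CPM with a prior count of 2 and 2-sided exact permutation over 720 pairings (scipy 1.17.1). Alternatives were DESeq2's size factors (DESeq2 1.42.0), upper-quartile factors, library size with and without psbA, either kind of reads alone, other filters, DESeq2's Wald test, a prior count of 0.5, plant number as a block, and each plant left out in turn. The settings for the ABF mean against the TMM factor were chosen after seeing the data. The markers and the choice of tests were made with earlier results of these data known. Named transcripts are the markers, psbA, the leaf transcripts of the Rubisco large subunit and phosphoenolpyruvate carboxylase, and, for each family, the 2 transcripts with the highest r with its mean standardized pattern. Planned comparisons of sequences and of other ABA pathway genes were not made, since the identifiers matched no entry of the gene table used here. The labels do not say that plants were grown as independent batches, so p-values measure the spread between these plants.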

Additional observations from a re-analysis of the deposited data

Results flagged for a closer look

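Of the 18 sets of plants examined (9 markers in each condition), 3 held a plant with a gap to its nearest neighbour above Dixon's 95% critical value. Chance gives this in about 1 of 20 sets of normally distributed values. That rate need not hold here, since the gaps were taken in CPM without logs and some sets rest on few counts. ABF2 (Si030114m) was 0.504 CPM in control plant 5, the highest of the 5 control plants, from 17 counts. AHG1 (Si013648m) was 0.151 CPM in control plant 1, from 4 counts, where the other control plants had 0 or 1. AHG1 was also 4.29 CPM in heat plant 2, where the other heat-stressed plants had 1.04 to 1.71 CPM.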

How the results depend on the processing

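The number of markers past the threshold is fixed in part by how they were chosen and shows no stability. With each plant left out in turn it was 9, beside 5563 to 5742 called higher of the 17510 to 18549 transcripts tested. The median log2 fold change was then 2.20 to 2.49 for the 9 markers. For the PP2Cs it was 2.45 to 2.87 and for the ABFs 0.69 to 0.86. The median pairwise r among heat-stressed plants was then 0.10 to 0.56, the r of ABF mean and PP2C mean 0.067 to 0.93 (the lowest without heat plant 2), and the r of ABF mean and TMM factor 0.96 to 0.98. Library size only gave medians of 3.39, 3.65 and 1.85 for markers, PP2Cs and ABFs, and removal of psbA from the library size an ABF median of 1.19. A filter of 10 counts in every plant left 4 markers, all higher (median 1.55), beside 4075 of the 12932 transcripts tested. Single reads alone, with fewer counts, left 6 markers to test, with 5 higher, beside 3004 of the 10434 transcripts tested. The medians were 1.80 for markers and 1.93 for PP2Cs, and ABF4, at 0.47, did not pass. The r of ABF mean and TMM factor was then 0.52 (exact permutation p = 0.288), from 2 ABFs. No marker changed sign in any setting run. Same-numbered plants did not deviate together (correlations of -0.0235 to 0.152 over 5 pairs, with 2 of the control plants closest to their own number), so plants were treated as unpaired. With plant number as a block, 9 markers were higher, beside 5575 of the 18065 transcripts tested, with medians of 2.45, 2.6 and 0.82. Depth limits AHG1 and Si010073m, with 7 and 2 counts in all controls, and ABF2.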
